A study of Saccharomyces cerevisiae with 9 samples.

Results

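The messenger RNA of iron-starved baker's yeast, Saccharomyces cerevisiae, that lacked both CTH1 and CTH2 was ranked by its signal on Affymetrix Yeast Genome S98 arrays. The 3 arrays described here are those labelled cth1cth2 in 100 µM BPS (V1, V2 and V3), out of 9 arrays in the series. They are called cultures 1, 2 and 3. The strain carries deletions of CTH1 and CTH2 and was transformed with pRS416, a URA3 plasmid without an insert. Cells grew at 30 °C in synthetic medium lacking uracil to exponential phase, for about 6 hours. The medium held 100 µM of the iron chelator BPS (bathophenanthroline disulfonate). RNA came from glass-bead extraction and was labelled with biotin. All 3 cultures shared the deletions, the plasmid and the chelator, so the values hold no iron-replete level and no level with Cth1 or Cth2 present. The labels name neither the strain background, the mating type nor the carbon source, and do not tell if each of the replicates came from its own transformant. The spread given below is therefore the spread between these 3 cultures and their arrays.

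Yeast that runs short of iron activates Aft1, a transcription factor that switches on genes for taking up and freeing iron. Reductases at the cell surface, a copper-dependent oxidase with its permease, siderophore transporters and mannoproteins of the cell wall that retain siderophores belong to that set. Cth1 and Cth2 act after transcription in the same condition: they bind AU-rich stretches of messages for iron-using proteins, among them respiratory and TCA cycle enzymes, and promote their decay. In fast-growing yeast, messages for ribosomal proteins and for glycolysis are known to make up much of the mRNA.

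Each value is a MAS5 signal, an arbitrary linear intensity for a probe set, which is a group of short oligonucleotides for 1 transcript. The table held 9335 probe sets, of which 6504 were assigned to 1 gene each and together read 5656 genes. Signals below 40.9, the 10th percentile of those single-gene values, were raised to that floor, taken as log2 and averaged over the 3 cultures. Each gene was then given a percentile among the 5656 genes, with 100 as the brightest. A signal also depends on how well a probe set binds, so a difference between genes is a difference in signal and not a ratio of mRNA copies, and no value was scaled by transcript length. Where 3 signals of a gene are given, they are those of cultures 1, 2 and 3 before flooring. No groups were compared and no p-value was computed. Of the 5656 genes, 5357 were read by a plain probe set and 299 by one whose ending marks shared or reduced probes, as many duplicated genes are. In bulk cultures, fewer cells with a message and less of it per cell cannot be told apart.

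The arrays were alike in scale. The median signal over all 9335 probe sets was 156, 164 and 153 in cultures 1, 2 and 3. Pearson's r between cultures, across genes, which are not independent replicates, was 0.966 to 0.973. Actin gave a ratio of 3′ to 5′ probe sets between 1.17 and 1.64. For SPT15, the TATA-binding protein, that ratio was 4.70, 1.04 and 1.84, highest in culture 1. The 19 non-yeast control probe sets gave 0.391 to 22.5, all under the floor. CTH1 read 0.583, 0.854 and 1.21, and TIS11, the standard name of CTH2, read 0.878, 5.90 and 5.56. Both deleted genes lay within the range of the non-yeast controls in all 3 cultures.

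Markers of mating type were read for a and alpha cells, and 6 of the 7 a-cell genes had a higher mean signal than all 4 alpha-cell genes, 4 of them by a wide margin. The a pheromone gene MFA2 read 1425, 1602 and 2046, and STE2, the receptor for the alpha pheromone, read 459, 573 and 534. The alpha pheromone gene MF(ALPHA)1 read 72.9, 55.3 and 79.0, and STE3, the receptor for the a pheromone, read 82.1, 112 and 101. All 4 alpha-cell genes lay between the 13.9th and the 28.7th percentile, while the a-cell genes MFA2, MFA1, STE2 and BAR1 lay between the 61.4th and 89.8th. The remaining a-cell genes were dim, ASG7 below every alpha-cell gene: STE6 at the 37.0th, AGA2 at the 29.7th and ASG7 at the 6.5th percentile. MFA1 rests on a shared-probe set, and its dimmest probe set was 2.95 lower on the log2 scale. URA3, carried by the plasmid, read 4076, 3533 and 4237, at the 95.9th percentile.

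The brightest transcript was CCW12, which encodes a small mannoprotein of the cell wall, at 24315, 27246 and 29558. It was followed by RPS21A at 19747, 22737 and 29495, and by TDH3, glyceraldehyde-3-phosphate dehydrogenase, at 22861, 20711 and 26296. ADH1, the alcohol dehydrogenase of fermentation, ranked 8th at 18000, 19346 and 23046. An iron-regulated gene stood among these housekeeping genes. FIT3, a cell wall mannoprotein that helps retain siderophore iron, ranked 10th at 22498, 15835 and 21070. The SD of FIT3 was 0.27 on the log2 scale (n = 3), close to the median SD of 0.242 over all genes.

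Of the 25 brightest genes, 13 encode cytosolic ribosomal proteins and 5 act in glycolysis or ethanol formation. The others were CCW12, FIT3, YDR524C-B, the cytosolic Hsp70 chaperones SSA1 and SSA2, the vesicle-transport GTPase ARF1, and ECM33, a cell wall protein. Their SDs ran from 0.0418 to 0.307 on the log2 scale. Culture 3 gave the highest of the 3 values in 22 of the 25, so the brightest genes mostly read highest on that array. Over all genes the share highest in culture 3 was not counted. For all 5656 genes, the median deviation from each gene's own mean was -0.01, 0.05 and -0.01 in cultures 1, 2 and 3 on the log2 scale. Shared or reduced probe sets read 8 of the 25.

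**Figure D1:**
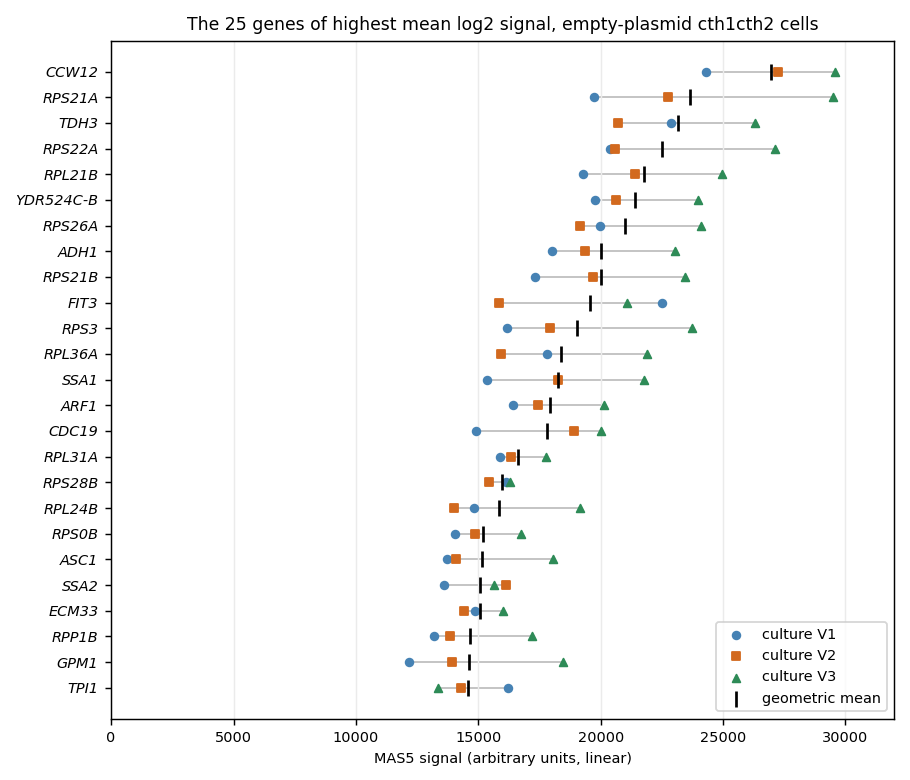
The 25 genes with the highest mean log2 signal, from the brightest at the top, with the MAS5 signal in each of the 3 cultures on a linear axis. Points are single cultures, the grey line is their range and the black tick is the geometric mean. CCW12 lies highest at 24315 to 29558, FIT3 is the single gene of iron uptake, and culture 3 is highest in 22 of 25.

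The 100 brightest genes carried 27.5% of the summed signal of all genes. Among them were 43 cytosolic ribosomal protein genes, 11 genes of glycolysis and ethanol, 6 of the cell wall, 6 of heat shock and stress, 3 of ergosterol synthesis and desaturation, 3 of oxidant defence and 3 of iron uptake. Lists can share genes. The dimmest of the 100 had a geometric mean signal of 8083. Of the 100, 23 had several probe sets, which differed by more than 2 log2 units in 9. Culture 3 gave the highest value in 70 of them. These were short genes: their median length from start to stop codon, introns included, was 745.5 nucleotides.

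Ribosomal proteins formed the brightest of the 52 gene lists. Of 81 genes measured, 79 were in the brightest 10% of all genes and none was in the dimmest 25%, and the list's median lay at the 98.4th percentile. They held 16.5% of the summed signal. RPS22A read 20385, 20574 and 27118, and RPS3 read 16175, 17932 and 23743. At the dim end were RPS9A at 1415, 1732 and 1731 and RPL22B at 1116, 1131 and 950, both copies of genes whose partner was far brighter. Shared or reduced probe sets read 30 of the 81, so the split between near-identical copies is uncertain for those.

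The factors that work on the ribosome were bright but wider in range. Of 28 translation factors, 14 were in the brightest 10% and 3 in the dimmest 25%. YEF3, elongation factor 3, a fungal ATPase, read 11744, 11580 and 14147. EFB1, the exchange factor of elongation factor 1, read 7231, 7485 and 9506. GCN2, the kinase that senses uncharged tRNA, read 113, 96.8 and 101, at the 23.1st percentile. Aminoacyl-tRNA synthetases had their median at the 92.4th percentile, from FRS1, a subunit of the phenylalanine enzyme, at 3766, 7606 and 5759, down to GLN4, the glutamine enzyme, at 239, 245 and 267.

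Genes that build ribosomes were brighter than most genes but well under the proteins of the finished ribosome. The 56 ribosome biogenesis genes had a median at the 71.3rd percentile, with NOP58, a box C/D snoRNP protein, at 6190, 6905 and 8362, and KRE33, an RNA acetyltransferase, at 98, 55.0 and 70.7. NOP58 depends on the probe set chosen, since its dimmest one was 7.18 lower on the log2 scale. The 72 genes of the mitochondrial ribosome had a median signal of 329, at the 57.6th percentile. Only 1 of them, MRPL37, was in the brightest 10%, at 1854, 2403 and 2043.

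Glycolysis and ethanol formation came next, with 18 of 24 genes in the brightest 10% and a median at the 97.3rd percentile. CDC19, the main pyruvate kinase, read 14898, 18895 and 20028. TPI1, triose phosphate isomerase, read 16224, 14294 and 13368, and PDC1, the main pyruvate decarboxylase, read 10250, 12168 and 8762. The 3 cultures differed little on this list, whose median deviation from each gene's own mean was -0.02, -0.02 and 0.03 on the log2 scale. PDC6, a minor decarboxylase, was under the floor on every array at 30.0, 32.7 and 19.6.

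Genes of hexose transport, 2 glucose sensors among them, spanned nearly the whole scale. HXT3, a low-affinity hexose transporter, read 11197, 8022 and 9059, and HXT1, also of low affinity, read 2097, 2493 and 2474. HXT2, a high-affinity one, read 2680, 1890 and 1900. HXT8, HXT10 and HXT14 lay between 23.7 and 48.2, at or near the floor. The 13 genes of the list had 3 in the brightest 10% and 4 in the dimmest 25%, the sensor SNF3 included, around a median at the 54.4th percentile.

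Genes for other carbon sources were dim. Of 14 genes for galactose and maltose, 8 were in the dimmest 25% and none in the brightest 10%. GAL10, the epimerase of galactose use, read 69.3, 43.8 and 33, while GAL80, the repressor of that pathway, was the brightest of the list at 294, 190 and 193. Gluconeogenesis and the glyoxylate cycle had a median at the 25.7th percentile, with fructose bisphosphatase, FBP1, at 29.2, 59.8 and 36.8. Malate dehydrogenase MDH2, at 731, 1014 and 835, and the peroxisomal citrate synthase CIT2, at 1588, 1235 and 1533, were the bright members. In peroxisomal fatty acid oxidation 12 of 18 genes were in the dimmest 25%, among them POX1, the acyl-CoA oxidase, at 31.6, 36.9 and 39.5.

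**Figure D2:**
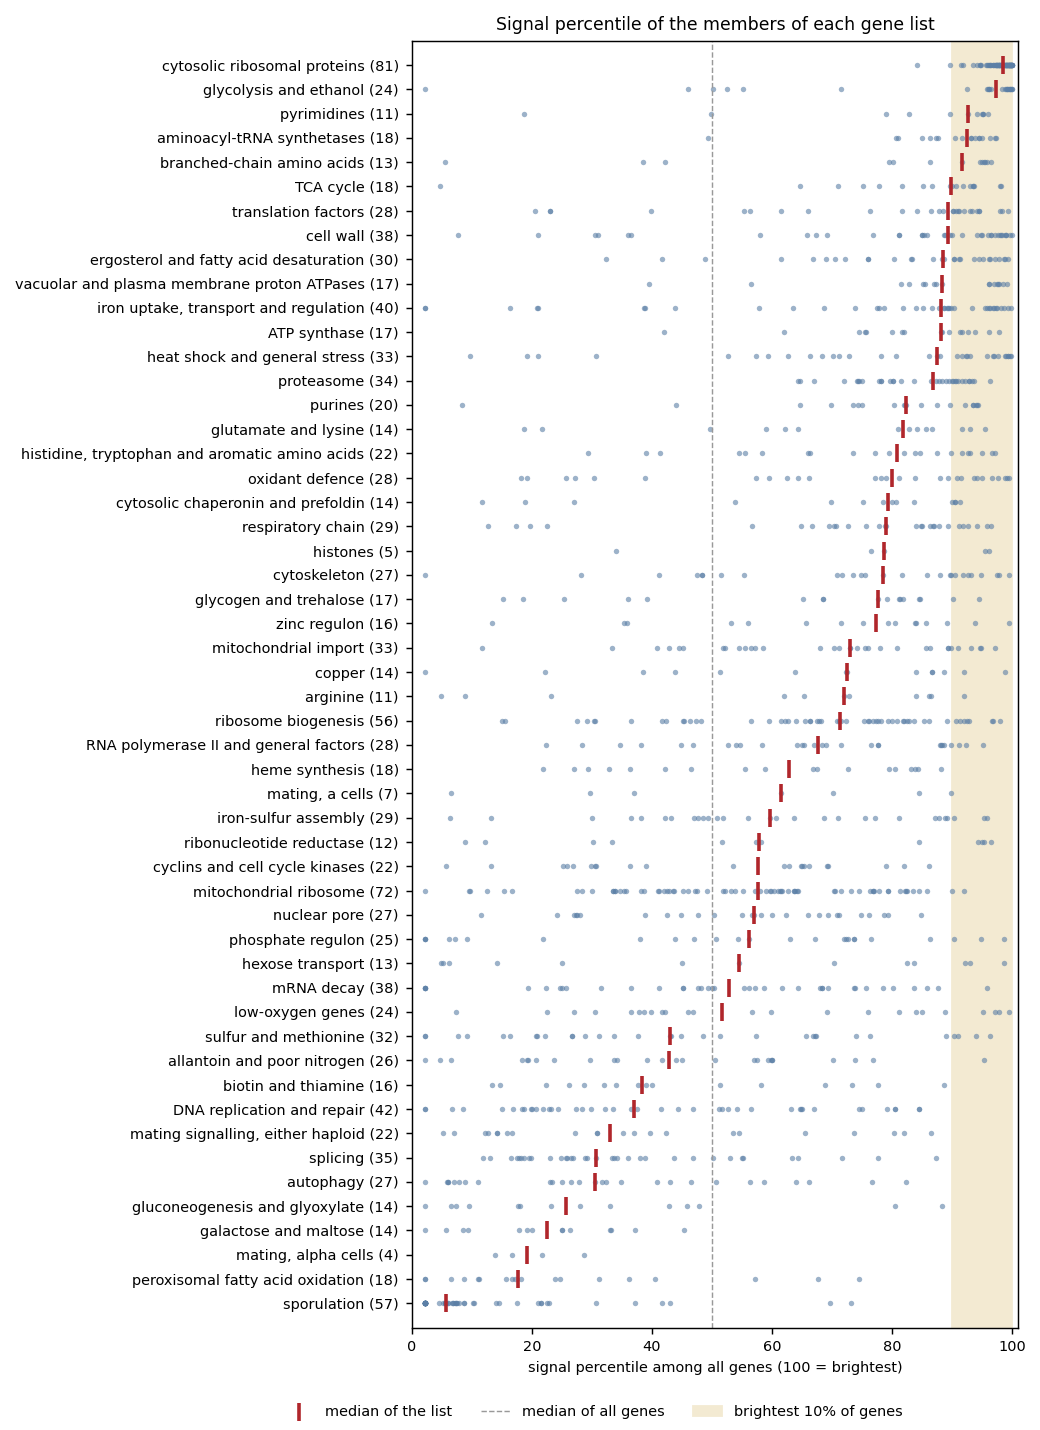
Signal percentile of every measured member of the 52 gene lists, one dot a gene, with 100 as the brightest and the number of genes in brackets. The red tick is the list's median, the dashed line the median of all genes and the shaded band the brightest 10%. Medians run from the 98.4th percentile for cytosolic ribosomal proteins to the 5.75th for sporulation.

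The surface of the cell was well represented. Of 38 cell wall genes, 17 were in the brightest 10%. GAS1, a wall-building glucanosyltransferase, read 8675, 9044 and 12318, and CWP2, a major mannoprotein, read 8533, 9405 and 12773. FLO1, a flocculin, read 17.3, 63.7 and 23.9 and lay near the floor. The proton pumps of the vacuole and plasma membrane had a median at the 88.3rd percentile. VMA3, the proteolipid of the vacuolar pump, read 11478, 12093 and 9723, and PMA1, the plasma membrane pump, read 7162, 4104 and 4246.

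Iron uptake was among the bright systems. Of 40 genes of iron uptake, transport and regulation measured, 14 were in the brightest 10% and 5 in the dimmest 25%, against 10% and 25% of all genes by construction. Of the 5 dim ones 2 are the deleted genes CTH1 and TIS11. The 14 bright ones include ISU1 and ISU2, which are also in the list for iron-sulfur assembly. The list's median lay at the 88.1st percentile, and at the 85.7th to 87.4th within single cultures. Without a culture grown with iron, these are levels and not responses.

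The high-affinity pathway that oxidises iron and carries it across the plasma membrane was bright in both parts. FET3, the copper-dependent ferroxidase, read 12038, 14558 and 11714 and ranked 38th of all genes. Its partner FTR1, the permease, read 4758, 5183 and 6106. The vacuolar counterparts were FET5 at 1783, 1837 and 1425 and FTH1 at 4485, 4459 and 3936. FET3 exceeded FET5 by 2.93 ± 0.15 on the log2 scale (SD, n = 3), while FTR1 exceeded FTH1 by only 0.31 ± 0.29. The 2 oxidases were thus far apart in every culture, and the 2 permeases close to each other. FET3 loads copper through ATX1, a copper chaperone, at 1193, 1289 and 1285, and CCC2, a copper pump of the secretory pathway, at 1259, 1497 and 1705. These copper genes stood close together, at the 86.6th and 88.6th percentile.

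In the route for siderophores, iron chelates made by other microbes, the mannoproteins and the transporters were bright. All 3 FIT mannoproteins were in the brightest 10%: FIT2 read 12976, 5881 and 10807, and FIT1 read 4969, 5906 and 3828. The 4 transporters were also in the brightest 10%. ARN2 read 6137, 7151 and 8567, ENB1 read 4749, 6698 and 6132, ARN1 read 5294, 3687 and 5916, and SIT1 read 4630, 3306 and 2961. ENB1 was brighter than SIT1 in all 3 cultures, by as little as 0.04 in culture 1 and by over 1 in the others. FIT2 varied most of these, with a range of 1.14 on the log2 scale and its low value in culture 2.

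The metalloreductases, which reduce iron or siderophore iron at membranes, differed widely among themselves. FRE2 read 2223, 1847 and 3535, and FRE1 read 998, 1246 and 913. FRE2 was the brighter of these surface reductases in each culture, with FRE1 minus FRE2 at -1.23 ± 0.70 (SD, n = 3) on the log2 scale. FRE6, of the vacuole, read 302, 379 and 316. FRE3, a siderophore reductase, read 425, 93.5 and 234, and so changed its place by more than 2 log2 units between cultures. FRE5 and FRE4 lay at 135, 73.3 and 86.0 and at 55.9, 88.9 and 91.5, close to the background of dim genes.

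Iron inside the cell is moved and freed by further members. HMX1, heme oxygenase, which frees iron from heme, read 3474, 4653 and 4227. SMF3, which exports iron from the vacuole, read 1983, 1932 and 1085, and was 3.20 ± 0.37 log2 units above SMF1, a manganese transporter of the same family at 172, 200 and 157. CCC1, which loads iron into the vacuole, read 280, 474 and 469, under SMF3 in each culture. MRS4, a carrier that brings iron into mitochondria, exceeded its paralog MRS3 by 1.51 ± 0.41. FET4, a low-affinity transporter, read 212, 162 and 156, at the 38.6th percentile.

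The regulators ranged from dim to bright. AFT1 read 477, 500 and 480, with an SD of 0.04, and was 2.35 ± 0.13 log2 units above its paralog AFT2 at 102, 100 and 85.4, which lay at the 21.1st percentile. GRX3 and GRX4, the glutaredoxins that relay iron status to Aft1, read 675, 879 and 642 and 708, 863 and 759. Their order was not the same in every culture. BOL2, which works with them, read 1556, 1537 and 1683, at the 89.3rd percentile, and FRA1, a further partner, read 712, 586 and 515.

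**Figure D3:**
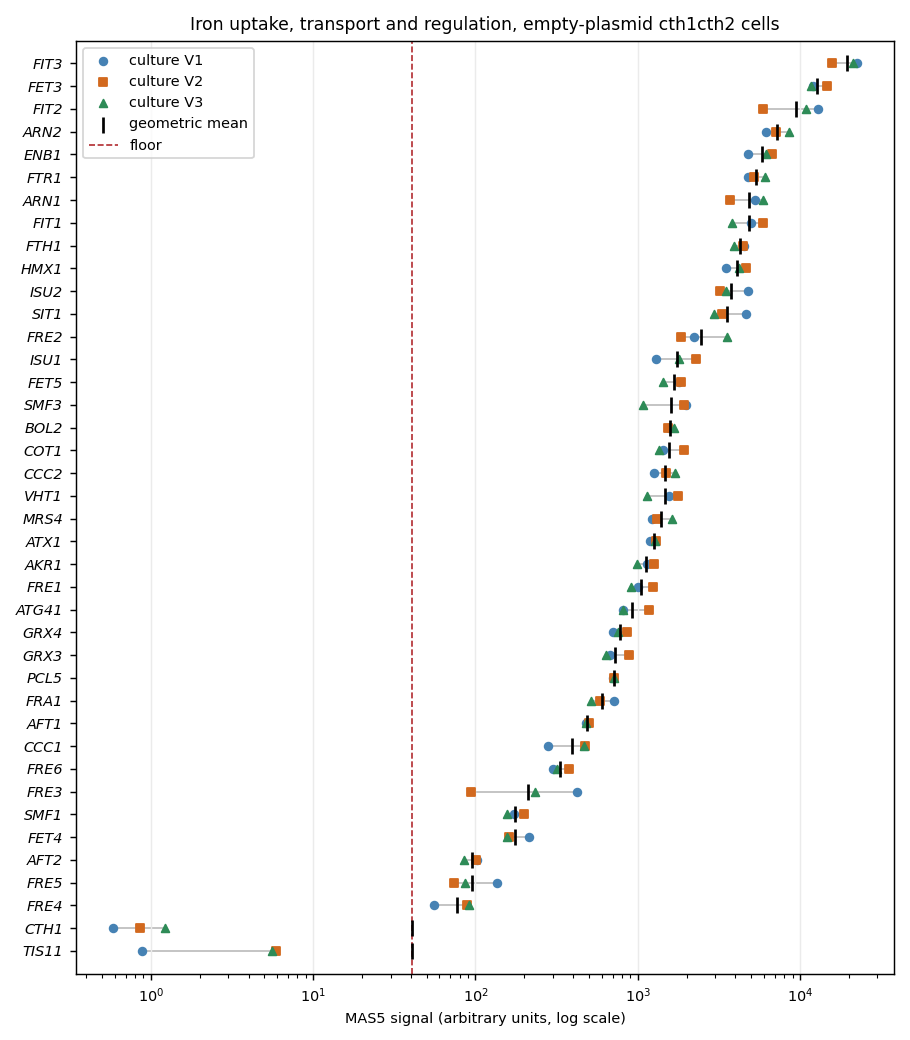
MAS5 signal on a log axis of the 40 measured genes of iron uptake, transport and regulation in the 3 cultures, in order of mean signal. Points are single cultures, the grey line their range, the black tick the geometric mean after flooring, and the dashed line the floor of 40.9. FIT3, FET3 and FIT2 lead, and the deleted genes CTH1 and TIS11 lie under the floor, so their ticks sit on it.

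Pathways that use iron were spread from bright to middling. The TCA cycle was bright, with 8 of 18 genes in the brightest 10% and a median at the 89.8th percentile. ACO1, aconitase, an iron-sulfur enzyme, read 6384, 10371 and 5155. IDH2, a subunit of isocitrate dehydrogenase, read 6714, 8809 and 6953, and exceeded its partner subunit IDH1 by 2.72 ± 0.27 log2 units. Of succinate dehydrogenase, the iron-sulfur subunit SDH2 read 1177, 1903 and 2132 and the anchor SDH4 read 2311, 2294 and 1149, in opposite orders. SDH1, the flavoprotein, was dimmer at 365, 727 and 584. CIT3, a minor mitochondrial citrate synthase, was the dim member at 24.9, 41.5 and 37.1.

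The respiratory chain had its median at the 79.0th percentile, with 6 of 29 genes in the brightest 10% and 4 in the dimmest 25%. COX1, a subunit of cytochrome oxidase encoded in mitochondrial DNA, read 4504, 4097 and 4342. QCR7, of the cytochrome bc1 complex, read 3487, 3716 and 4070, and NDE1, an NADH dehydrogenase facing the cytosol that carries no iron, read 2771, 3571 and 2254. RIP1, the Rieske iron-sulfur protein, read 1232, 1307 and 1160. CYT1, cytochrome c1, read 442, 380 and 427, and CYC1, the main cytochrome c, read 556, 450 and 573. Nuclear-encoded subunits of cytochrome oxidase were spread widely, from COX12 at 2389, 1940 and 2492 to COX26 at 94.0, 98.9 and 80.3. Between them lay COX4 at 1075, 997 and 1314 and COX7 at 990, 376 and 737. COX2, also mitochondrial, read 114, 63.3 and 76.0, far under COX1. The COX1 value comes from the brightest of 3 probe sets, of which the dimmest was 3.88 lower on the log2 scale. ATP synthase, which holds no iron, had its median at the 88.1st percentile, with ATP3 at 5633, 7487 and 7580 and ATP20 at 188, 251 and 163.

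The heme synthesis list, which also holds the HAP genes and others such as COX10, COX15 and CYC3, was middling. None of 18 genes was in the brightest 10%, and the median lay at the 62.8th percentile. HEM1, which begins the pathway, read 978, 1097 and 875, and HEM3, porphobilinogen deaminase, read 91.0, 117 and 89.7. HAP3, a subunit of the heme-responsive activator of respiratory genes, was the brightest of the list at 1608, 1116 and 1624, while HAP2 of the same complex read 117, 174 and 108.

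Iron-sulfur assembly was of the same order, at the 59.7th percentile. The scaffold ISU2 was the brightest of its genes at 4795, 3212 and 3485, above its paralog ISU1 at 1293, 2283 and 1800. NFS1, the cysteine desulfurase that supplies the sulfur, read 1464, 1708 and 1491. The chaperone pair that releases clusters from the scaffold was dim: JAC1 read 145, 122 and 134 and SSQ1 read 48.9, 44.6 and 33.3.

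Sterol synthesis, which needs oxygen and heme or iron at several steps, was bright. Of 30 genes of ergosterol synthesis and fatty acid desaturation, 14 were in the brightest 10% and none in the dimmest 25%. The C-5 desaturase ERG3, a di-iron enzyme, read 9314, 14129 and 14817. ERG25, the C-4 methyl oxidase and also di-iron, read 9513, 8147 and 11531. ERG11, a cytochrome P450, read 5515, 4144 and 5753, and OLE1, the fatty acid desaturase, read 6838, 7646 and 6092. ERG2, a sterol isomerase that uses no iron, read 8939, 10046 and 9154. Iron-using members lay on both sides of the list's median at the 88.5th percentile. ERG3, ERG25, OLE1 and ERG11 were among those above it. Under it lay the hydroxylase SUR2 at the 75.9th, CYB5, cytochrome b5, at the 66.8th and ERG5, another cytochrome P450, at the 61.4th. The share of iron-using enzymes in the whole list was not counted. The sterol-sensing regulators UPC2 and ECM22 were at the dim end of the list, with 239, 155 and 82.4 and 102, 321 and 225, and changed order between cultures.

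Ribonucleotide reductase, whose small subunit carries iron, read unevenly. RNR4 read 3426, 2746 and 4209 and RNR2 read 1009, 1145 and 1103, although both build the small subunit. The large subunit RNR1 read 2988, 2973 and 2631, and SML1, an inhibitor of the enzyme, read 3367, 4719 and 5300. RNR3 and HUG1, both induced by DNA damage, were dim at 81.2, 55.8 and 56.1 and at 65.8, 50.2 and 37.3.

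Amino acid and nucleotide synthesis lay in the upper part of the scale, with exceptions. The branched-chain pathway had its median at the 91.6th percentile. LEU1, an iron-sulfur isomerase of leucine synthesis, read 4233, 3183 and 3010, and ILV3, an iron-sulfur dehydratase, read 3758, 3289 and 3723. LEU2, the next step of the leucine pathway, read 4.79, 13.5 and 45.8 and was the single member in the dimmest 25%. TRP5, tryptophan synthase, read 4967, 5299 and 5047, with an SD of 0.05. The lists for pyrimidines and purines had medians at the 92.7th and the 82.3rd percentile. URA2, which begins pyrimidine synthesis, read 2740, 3613 and 3800.

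Sulfur and methionine genes had a median at the 43.0th percentile. Of 32 measured, 4 were in the brightest 10% and 9 in the dimmest 25%, both close to the shares of all genes. HOM6, homoserine dehydrogenase, read 3527, 4013 and 5468. MET17, the O-acetylhomoserine sulfhydrylase, read 7.08, 21.3 and 4.82, under the floor and within the range of the non-yeast controls. LEU2 lay in that range too in cultures 1 and 2. HIS3, of histidine synthesis and chosen after its values were seen, read 827, 1021 and 1309. Whether LEU2 or MET17 is deleted in this strain is not in the labels and was not tested.

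Arginine synthesis was split. The catabolic arginase CAR1 read 1794, 2506 and 2069, and ARG4, argininosuccinate lyase, read 1207, 1140 and 1370. ARG3, ornithine transcarbamylase, read 31.8, 42.6 and 37.7 and ARG8 read 80.4, 32.3 and 38.6, with ARG3 near the floor in every culture and ARG8 under it in cultures 2 and 3. ADE4, which commits to purine synthesis, read 6.86, 71.9 and 27.7, while ADE3 read 2931, 2476 and 2633. Biotin and thiamine genes had a median at the 38.4th percentile, with BIO2, biotin synthase, an iron-sulfur enzyme, at 576, 503 and 706, and VHT1, the biotin importer, listed with the iron genes, at 1562, 1782 and 1148.

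Oxidant defence ranged from the brightest to dim. TSA1, a cytosolic peroxiredoxin, read 11826, 14271 and 15905, AHP1, another peroxiredoxin, read 10748, 11517 and 9454, and SOD1, the copper-zinc superoxide dismutase, read 6603, 10308 and 12990. The catalases, which are heme enzymes, were dim. CTT1 read 82.7, 74.7 and 112 and CTA1 read 77.0, 87.2 and 90.5, at the 19.2nd and 18.1st percentile.

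The heat shock and stress list and the proteasome list were bright, with medians at the 87.4th and the 86.8th percentile. Cytosolic chaperonin and prefoldin genes lay lower, at the 79.2nd. Of these 14 genes, 3 were in the brightest 10% and 2 in the dimmest 25%. HSC82, the constitutive Hsp90, read 8623, 10650 and 12367, and the stress genes HOR7 and DDR48 read 10706, 12715 and 14966 and 10898, 12965 and 12668. The dimmest probe set of DDR48 was 2.05 lower on the log2 scale. The Hsp70 gene SSA4 read 359, 476 and 335, and MSN4, a stress regulator, read 47.5, 154 and 117. The stress list therefore held both some of the brightest genes and genes in the dimmest 25%. The 34 proteasome genes kept within the upper part of the scale, with 11 in the brightest 10% and none in the dimmest 25%, from PUP3 at 4253, 4673 and 3613 to RPN4, their activator, at 496, 450 and 311.

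Other metals gave comparison points. The zinc importer ZRT1 read 2900, 2453 and 2541, with its dimmest of 4 probe sets 3.64 lower on the log2 scale, and ZAP1, the zinc-responsive activator, read 58.2, 85.6 and 60.4. The copper transporter CTR1 read 405, 345 and 471, and CTR3 read 88.4, 100 and 113. The phosphate genes SPL2, PHM6 and PHM7 were under the floor on all arrays, between 19.7 and 40.0, while VTC1, which helps make polyphosphate, read 3213, 3298 and 2983. Low-oxygen genes had a median at the 51.7th percentile, with CPR1, cyclophilin, at 12741, 14834 and 12582 and DAN1, a cell wall protein of anaerobic cells, at 140, 209 and 85.3.

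Lists of nuclear functions lay on both sides of the median of all genes. Histones had a median at the 78.6th percentile, cyclins and cell cycle kinases at the 57.7th and the nuclear pore at the 57.0th. DNA replication and repair had a median at the 37.0th percentile, with MCM2, of the replicative helicase, at 1258, 887 and 1125 and RAD55, a recombination protein, at 35.7, 31.5 and 15.1. Splicing had a median at the 30.7th, with PRP43, a helicase that also serves ribosome assembly, at 1455, 1430 and 1082. RNA polymerase II and its factors were brighter, at the 67.6th, with the largest subunit RPO21 at 3086, 3798 and 3198. Outside the nucleus, autophagy lay at the 30.6th percentile, with ATG8, the ubiquitin-like protein of the autophagosome, at 1018, 392 and 779. Of 38 mRNA decay genes, the group to which CTH1 and CTH2 belong by function, 1 was in the brightest 10%, and XRN1, the main 5′ exonuclease, read 1291, 1164 and 1129. LSM2 led that list at 3619, 3767 and 4138, but its dimmest probe set was 5.29 lower on the log2 scale.

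Sporulation genes were the dimmest list. Of 57 measured, 51 lay in the dimmest 25% of all genes, and 23 were under the floor on every array. SPR3, a septin of sporulation, read 16.5, 14.3 and 14.4, and ZIP1, of the synaptonemal complex, read 13.7, 17.3 and 33. CDA2, a chitin deacetylase of the spore wall, was the brightest at 672, 581 and 515, on a probe set with a shared or reduced ending, while its dimmest probe set was 3.83 lower on the log2 scale. Among pheromone response genes, FUS1, induced in mating, read 43.9, 28.9 and 39.6.

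By kind of gene, the 57 small nucleolar RNA genes were dim, with a median at the 10.8th percentile, and the 91 tRNA genes had a median at the 61.0th. How well RNAs other than messages were labelled was not tested, so these places are of signal only. The 11 pseudogenes lay at a median of the 7.66th percentile. Of 449 protein-coding genes with only a systematic name, 195 were in the dimmest 25% and 21 in the brightest 10%, and the brightest was YDR524C-B at 19764, 20627 and 23981, whose dimmest probe set was 2.59 lower on the log2 scale. Length rose and then fell along the scale, over 10 equal bins of genes by signal. The median length of coding genes was 1272 nucleotides in the dimmest bin, 1404 in the 4th, the longest, and 942 in the brightest.

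Isoform and subunit pairs were compared within each array, as the log2 signal of one gene minus the other. Of 103 pairs listed, 89 had a single-gene probe set for both, and 72 had plain probe sets for both. The order was the same in all 3 cultures in 80 of the 89. With 3 cultures, an exact two-sided sign-flip test could not go below p = 0.25, so the differences are given with their SD only. The median absolute difference was 1.88 and the median SD 0.341, and 43 pairs kept 1 order and differed by more than 2 log2 units on average, with 16 over 4.

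In several steps of glycolysis and fermentation 1 isoform was far brighter than the others. CDC19 exceeded PYK2, the second pyruvate kinase, by 6.31 ± 0.27 (SD, n = 3), with PYK2 at 152, 272 and 271. ADH1 exceeded ADH2, the isoform that consumes ethanol, by 6.17 ± 0.48, and ADH5 by 6.28 ± 0.52. PDC1 exceeded PDC5 by 5.08 ± 0.21. The enolases ENO2 and ENO1 lay close, at 13479, 8756 and 16691 and at 13190, 12945 and 15665, and did not keep 1 order. Both enolase probe sets are of the shared or reduced kind. Of the sugar kinases, HXK2 exceeded HXK1 by 1.87 ± 0.19, and HXK1 lay under GLK1 in each culture, at -0.91 ± 0.23.

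The largest difference of all pairs was between YEF3 and HEF3, a paralog of elongation factor 3 that read 86.4, 89.5 and 105. It was 7.06 ± 0.04, and 7.09, 7.02 and 7.07 in the single cultures. HYP2, the aerobic form of translation factor eIF5A, exceeded ANB1, its low-oxygen form, by 5.29 ± 0.28. Other pairs of aerobic and low-oxygen forms ran the same way. COX5A exceeded COX5B by 1.28 ± 0.42, CYC1 exceeded CYC7 by 2.37 ± 0.26, HMG1 exceeded HMG2 by 0.96 ± 0.39, and PET9, the main ADP/ATP carrier, exceeded AAC3 by 4.77 ± 0.81. All 5 of these kept 1 order in the 3 cultures. The COX5B signal, at 356, 264 and 348, lay 2.43-fold under COX5A, whereas ANB1 lay 39.2-fold under HYP2.

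Mitochondrial pairs differed in size of gap. CIT1 exceeded CIT3 by 5.83 ± 0.47 and CIT2 by only 0.69 ± 0.27. NDE1 exceeded NDE2 by 5.44 ± 0.30. The succinate dehydrogenase anchors SDH3 and SDH4 exceeded their paralogs SHH3 and SHH4 by 3.82 ± 0.50 and 3.14 ± 0.45. Where 1 member was at the floor on some arrays, as CIT3 was on 2 and NDE2 on 1, the difference is a lower bound for those arrays.

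Some pairs ran against the order in which they were listed. ISU1 lay under ISU2 by a difference of -1.11 ± 0.71, and RNR2 under RNR4 by -1.65 ± 0.35. ADE17, one of the enzymes of the last steps of purine synthesis, lay under ADE16 in each culture, at -3.32 ± 0.48. CLB2, a mitotic cyclin, lay under CLB1 at -2.05 ± 0.34, and SAM2 under SAM1 at -1.32 ± 0.70. ISU1 minus ISU2 was -1.89, -0.49 and -0.95 in cultures 1, 2 and 3, a spread larger than most pairs.

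Chaperone pairs differed between constitutive and inducible forms. SSA1 exceeded SSA3 by 6.04 ± 0.52 and SSA4 by 5.57 ± 0.40, and SSA2 lay close to SSA1 at -0.28 ± 0.17. HSC82 exceeded HSP82 by 2.15 ± 0.97, and HSP82 read 2871, 3525 and 1275, lowest in culture 3. All of these chaperone pairs include a probe set of the shared or reduced kind, so the split within them is uncertain. In amino acid synthesis LEU4 exceeded LEU9, the second isopropylmalate synthase, by 4.23 ± 0.24, GDH1 exceeded GDH3, the second NADP glutamate dehydrogenase, by 1.61 ± 0.40, and BAT1, the mitochondrial branched-chain transaminase, exceeded the cytosolic BAT2 by 1.88 ± 0.63. PMA1 exceeded PMA2 by 4.79 ± 0.35.

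Ribosomal protein pairs were closer. All 14 measured kept 1 order, with a median absolute difference of 1.12, against 2.05 over the other 75 pairs, and 3 exceeded 2 log2 units. RPL7A exceeded RPL7B by 1.18 ± 0.48, but their difference turned to -0.352 when all probe sets of a gene were averaged, and the probe sets of RPL7A lay 7.36 log2 units apart. RPL22A, at 10180, 16131 and 17386, exceeded RPL22B by 3.74 ± 0.51, the widest of them, on plain probe sets. RPS26A exceeded RPS26B by 2.78 ± 0.17 and RPS9B exceeded RPS9A by 2.50 ± 0.28. RPS14A and RPS14B lay close, at 0.37 ± 0.26. Only 6 of the 14 pairs had plain probe sets on both sides. Paralogs of this family are known to be nearly identical.

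The 9 pairs without a fixed order were ENO2 and ENO1, PFK2 and PFK1, HXT7 and HXT6, GRX3 and GRX4, GRX2 and GRX1, CTT1 and CTA1, IMD4 and IMD3, TUB1 and TUB3, and CLN1 and CLN2. The enolase, HXT7 and HXT6, and IMD4 and IMD3 pairs include a shared or reduced probe set, so the split within them is uncertain. PFK2 and PFK1, the subunits of phosphofructokinase, differed by 0.08 ± 0.33, and the alpha tubulins TUB1 and TUB3 by 0.09 ± 0.29. In all 9 the mean difference was smaller than its SD, as for CTT1 minus CTA1 at 0.06 ± 0.27.

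**Figure D4:**
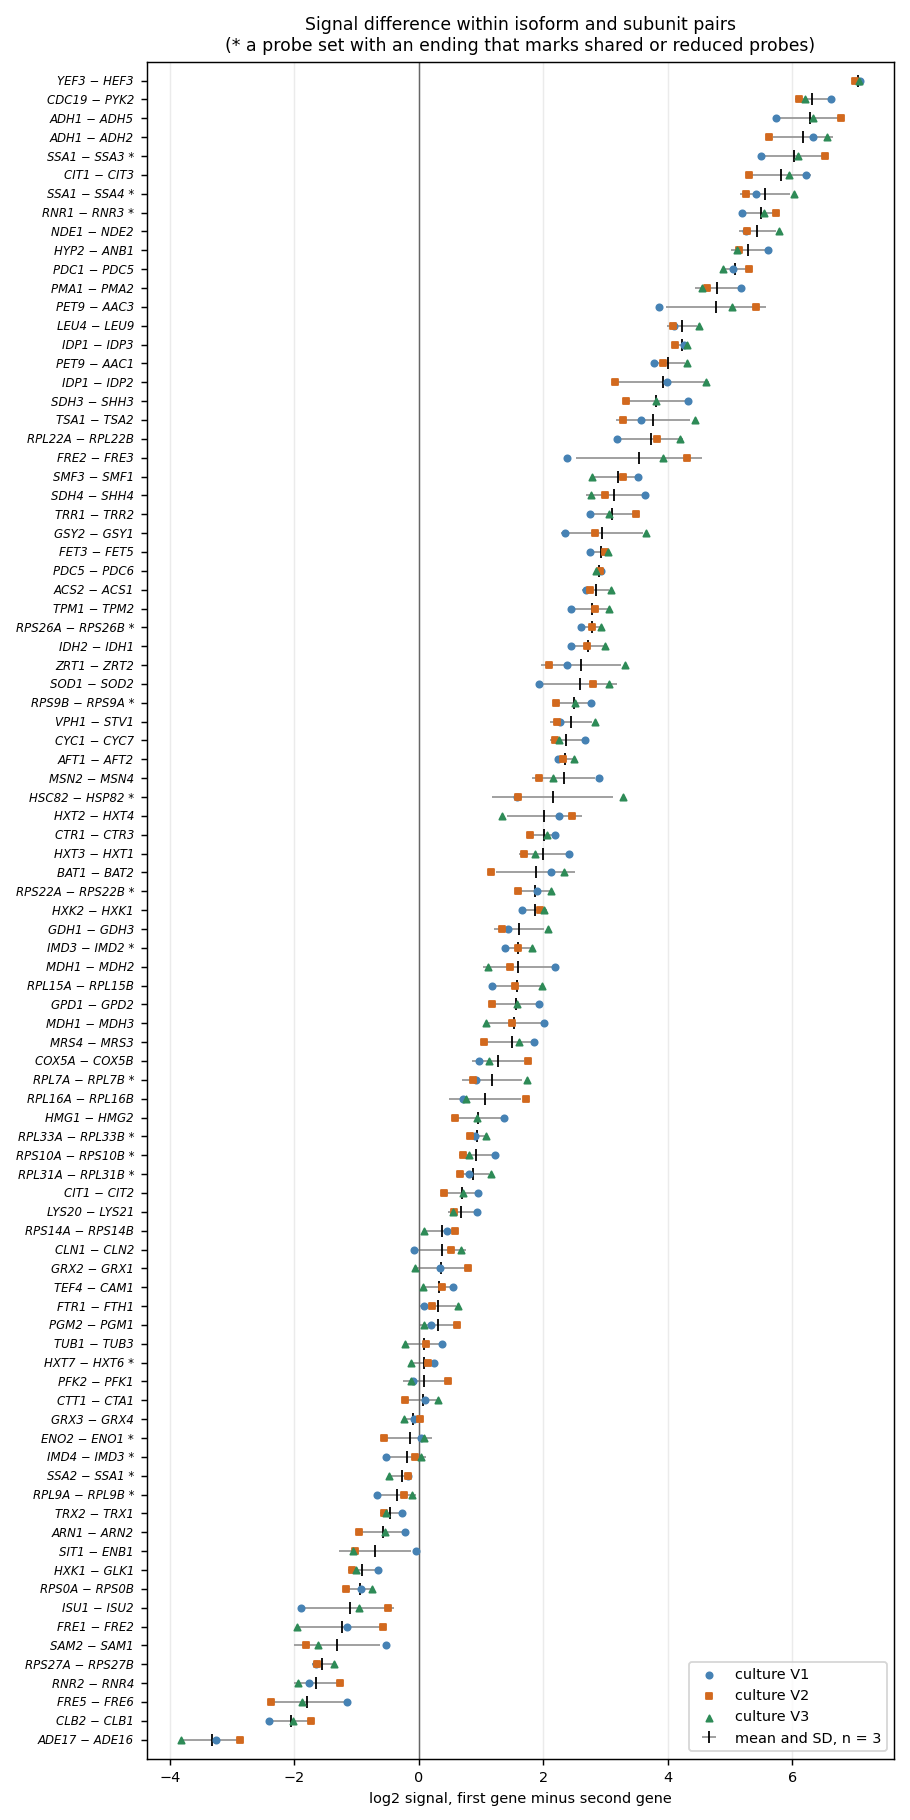
Log2 signal of the first-named gene minus the second for the 89 measured pairs, in each of the 3 cultures (points) with the mean and SD (black tick and grey bar, n = 3). An asterisk marks pairs in which a probe set has a shared or reduced ending. YEF3 minus HEF3 lies at 7.06 with nearly equal cultures, ADE17 minus ADE16 at -3.32, and 80 pairs keep 1 sign.

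The cultures differed little for most genes. Among the 4242 genes above the 25th percentile, a signal of 112, the median SD was 0.249 on the log2 scale. The range over the 3 cultures was under 0.5 in 53.3% of them and over 1, a 2-fold span, in 400 genes (9.43%). Bright genes varied less, from a median SD of 0.298 in the bin next to the dimmest to 0.214 in the brightest of the 10 bins. The dimmest bin had 0.0352, a figure set by the floor, which 500 of its 566 genes touched.

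Culture 1 stood apart most often. Of the 400 genes with a range over 1, the odd culture, the one farther from the middle value, was culture 1 in 172, culture 2 in 108 and culture 3 in 120. It was the low one more often than the high one: 121 against 51 for culture 1, 75 against 33 for culture 2 and 100 against 20 for culture 3. Between cultures 1 and 2, 225 genes differed by more than 2-fold, against 177 for cultures 1 and 3 and 139 for cultures 2 and 3. Culture 1 also had the highest SPT15 3′ to 5′ ratio, 4.70, and its part in these counts was not tested.

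The widest range belonged to PCK1, phosphoenolpyruvate carboxykinase, the first committed step of gluconeogenesis, at 43.2, 454 and 102. It was followed by STE23, a protease that processes the a pheromone, at 57.1, 399 and 260, and by GCD7, a subunit of translation factor eIF2B, at 177, 1006 and 682. These were lowest in culture 1 and highest in culture 2. SPO14, phospholipase D, KIN2, a kinase, DIP2, of the small-subunit processome, and YFL041W-A and ANK1 were also lowest in culture 1. FRE3 and ALG5, a glucosyltransferase of the endoplasmic reticulum, were lowest in culture 2, at 93.5 and 127, and highest in culture 1, at 425 and 580. PER1, which remodels the lipid of GPI anchors, and YHR214C-B, read by a shared probe set, were lowest in culture 3, at 185 and 1745. The 12 genes of widest range thus did not move in 1 direction across the cultures, with the low value in culture 1 in 8 of them.

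**Figure D5:**
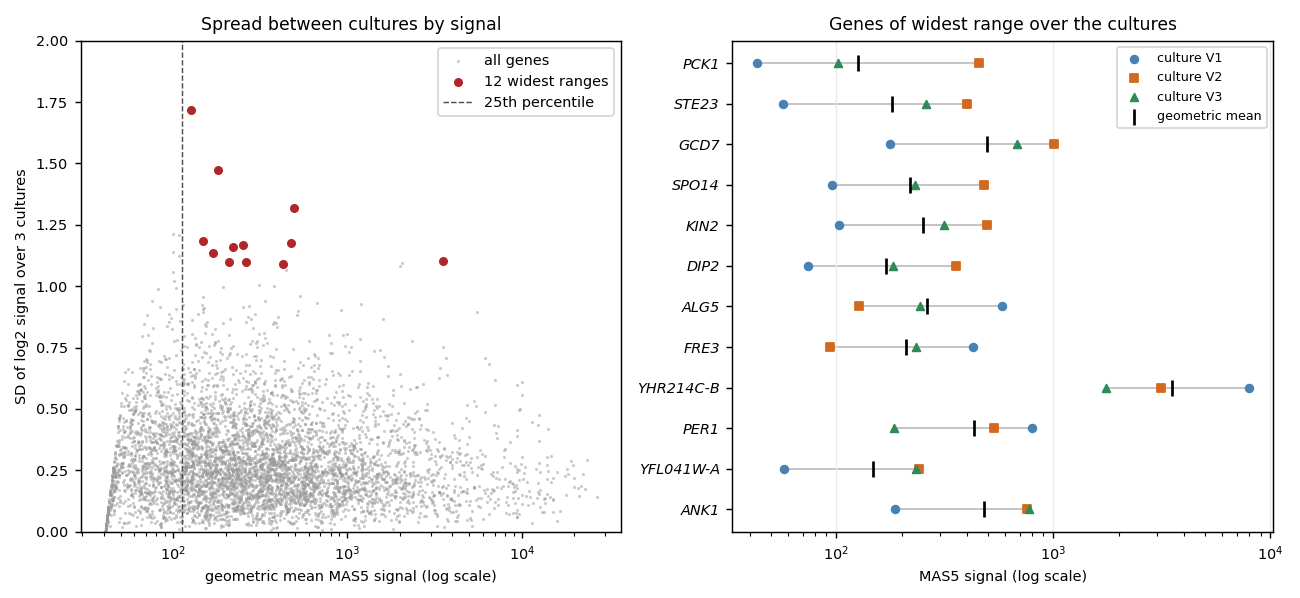
Left, the SD of log2 signal over the 3 cultures against geometric mean signal (log axis) for 5656 genes, with the 12 of widest range above the 25th percentile (dashed) in red. Right, the MAS5 signal of those 12 genes in each culture on a log axis, with the range as a grey line and the geometric mean as a tick. PCK1 spans 43.2 to 454, and 8 of the 12 are lowest in culture 1.

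Lists were also followed across the cultures. The median deviation from each gene's own mean was -0.26, 0.09 and 0.15 for pyrimidine synthesis in cultures 1, 2 and 3, -0.18, 0.23 and -0.01 for gluconeogenesis and the glyoxylate cycle, and -0.18, 0.21 and 0.04 for glycogen and trehalose. These were the lists with the widest span. In the last, UGP1, which makes UDP-glucose, read 1000, 2352 and 2117, and TPS1, trehalose phosphate synthase, read 3006, 3533 and 2355. Over all genes the same deviation was -0.01, 0.05 and -0.01. Iron uptake stood at -0.03, 0.05 and -0.02, and ribosomal proteins at -0.05, -0.08 and 0.14, highest in culture 3. The respiratory chain stood at 0.04, -0.07 and 0.13, although COR1, a core subunit of the bc1 complex, read 730, 190 and 636 and CCP1, cytochrome c peroxidase, read 453, 1192 and 934.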

How the data were processed

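The authors deposited a linear intensity for each probe set of each array, computed with MAS5 according to the submitters' processing notes; its version is not named here. Trimmed of the dimmest and brightest 2% of probe sets, the 3 arrays had the same mean signal, 499.8, so they had been scaled to 1 target before deposit, and a signal is relative to its array. Detection calls were not used here. Precision is limited by having 3 arrays. The 6 columns of other groups were not used. All 6504 single-gene probe sets were matched by gene number to the RefSeq annotation of assembly R64, used for names and lengths. For the 315 genes with several probe sets the one of highest mean was kept, which favours bright sets.

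Ranks, percentiles, SDs and pair differences were computed in Python 3.11.15 with numpy 2.4.6 and pandas 2.3.3. On simulated data only the SD and percentile steps were tested, without a floor, a choice of probe set or pairs. No covariates or tests were used. Genes were named by a rule: the 25 brightest, up to 4 brightest and 3 dimmest members of each of the 52 lists, every measured pair, the 12 genes of widest range above the 25th percentile, and CTH1 and TIS11. Listed iron uptake, TCA cycle and respiratory chain genes outside that rule, and HIS3 and SNF3, were named after their values were seen. Listed genes without a single-gene probe set are not analysed here. Lists, pairs and members were chosen with earlier results of these data known. Alternatives changed the floor, the scaling, the probe set per gene, the mean over cultures and the cultures used.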

Additional observations from a re-analysis of the deposited data

Results flagged for a closer look

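Some of the signal lies in probe sets outside the ranking. Of the 2443 probe sets with no gene in the platform annotation, 13 (0.532%) were at least as bright as the 100th gene. The brightest of them read 14718, 14600 and 16791 in cultures 1, 2 and 3, while the median of that set was 52.5. Of the 328 probe sets assigned to several genes, 44 (13.4%) were at least as bright as the 100th gene. The brightest of them read 20395, 24571 and 28243, above all ranked genes but CCW12 in geometric mean, and the median of that set was 620. Genes read only by such probe sets are not in the ranking, so it leaves out part of the brightest messages, and no gene is named here from a probe set with several.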

How the results depend on the processing

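No paired analysis was possible because only 1 group of cultures is described, so replicate numbers pair no samples across groups and no test was run. Each result was recomputed under 10 alternatives. Of 520 list percentiles, 457 moved by less than the spread between cultures and 63 by more, by at most 11.2 percentile points. Of 874 pair differences, 855 moved by less than that spread, 17 by more, and 2 changed sign when all probe sets of a gene were averaged: TEF4 minus CAM1 to -0.0639 and RPL7A minus RPL7B to -0.352. With plain probe sets only, the median percentile was 98.7 for ribosomal proteins, 96.6 for glycolysis and ethanol, 90.5 for the TCA cycle, 79.7 for the respiratory chain and 2.94 for sporulation. Averaging probe sets gave 97.6 for glycolysis and ethanol. The median of the cultures gave 82.1 for the respiratory chain and 3.32 for sporulation, and for sporulation no floor gave 6.39 and a floor at the 25th percentile 8.0. Leaving out each culture in turn gave 78.8 to 83.3 for the respiratory chain, 87.2 to 88.0 for iron uptake and 6.09 to 6.14 for sporulation. It lowered the median SD to between 0.198 and 0.212 and the genes with a range over 1 to between 139 and 217, as 2 cultures span less than 3. Without culture 1 there were 139 such genes, without culture 2 there were 171 and without culture 3 there were 217. Dim genes near the floor have no order among themselves.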
